A study of Homo sapiens with 2 samples.

Results

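The keratins, cell junction and basement membrane genes and basal identity genes of prostate epithelium were followed in RWPE-1 cells after transfection with pre-miR-424. The set held 44 genes, chosen by name and with earlier results of these data known. It held 15 keratins, 6 tight junction and adhesion genes and 9 desmosome genes. The rest were 7 genes of hemidesmosomes and the basement membrane, and 7 genes of basal identity and the cornified envelope. All 44 were measured, among 13812 measured genes of the 19740 with a named probe on the array. RWPE-1 is an immortalised, noncancerous human prostate epithelial cell line, grown here in keratinocyte serum-free medium. The microRNA miR-424 was delivered as a synthetic precursor, pre-miR-424, at 30 nM, and control cells received a negative control precursor. As both groups were the same line, the values describe 1 cell line, and the time between transfection and RNA extraction is not given in the sources used here. Both RNAs were hybridised together to 2 Agilent arrays, with pre-miR-424 RNA in Cy5 on the normal array and in Cy3 on the dye swap. The labels call the arrays technical replicates, so they counted as 1 replicate, no p-value was computed, and every SD below is the spread between the arrays and covers labelling and hybridisation error only.

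Keratins are the intermediate filament proteins of epithelia and assemble as pairs of a type I and a type II chain: basal cells of the prostate make KRT5 with KRT14, and luminal cells KRT8 with KRT18. Desmosomes tie these filaments to neighbouring cells and hemidesmosomes tie them to the basement membrane, while tight junctions seal the space between cells. The transcription factor TP63 marks basal cells, and involucrin and the small proline-rich proteins form the cornified envelope of stratified epithelia.

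A microRNA finds its targets mainly through its seed, bases 2 to 8, and the mature strands of the transfected precursor are shown here with 2 natural microRNAs of the same seed, because the seed defines what was delivered to the cells. In the RefSeq sequences (GRCh38.p14) miR-424-5p lies at chrX:134546680-134546701 on the minus strand. The seed, in capitals, is shared by 7 mature human microRNAs, miR-424-5p included, and not by the strand from the other arm, miR-424-3p.
hsa-miR-424-5p: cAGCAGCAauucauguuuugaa
hsa-miR-16-5p: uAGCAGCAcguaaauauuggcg
hsa-miR-497-5p: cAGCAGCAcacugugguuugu
hsa-miR-424-3p: cAAAACGUgaggcgcugcuau

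Markers of both basal and luminal epithelium were found in the cells. KRT5, KRT14, KRT15, KRT17 and TP63 had signals well above background in all 4 channels of the arrays, and so had KRT7, KRT8, KRT18 and KRT19, so detection alone did not set the basal markers apart. Of 12 luminal prostate genes 5 were measured, and KLK3, which encodes prostate-specific antigen, was not well above background in any channel. Of the markers of other cells, 5 of 10 for fibroblasts and smooth muscle, 1 of 4 for endothelium, 4 of 5 for leukocytes and 3 of 7 for neuroendocrine cells were measured. With the 5 luminal prostate genes and 7 mesenchymal genes added, 25 markers were measured. Of these 0 differed by 1.5-fold on both arrays, which is near the share of all measured genes that did, 1.01%. As RNA of whole cultures was measured, fewer cells of a type and less RNA per cell cannot be told apart.

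In cells with pre-miR-424, 8 of 9 desmosome genes were lower on both arrays, while the other structures held as many lower as higher genes, or nearly so. Of the 15 keratins 3 were higher and 3 lower on both arrays, of the 6 tight junction and adhesion genes 2 and 3, and of the 7 hemidesmosome and basement membrane genes 3 and 3. Of the 44 genes, 9 were higher on both arrays (20.5%, against 26.8% of all measured genes), 18 were lower on both (40.9%, against 26.7%), and 17 had opposite directions on the arrays (38.6%, against 46.5%). The only member past 1.5-fold on both arrays was KRT80, which was higher; 1.01% of all measured genes passed this threshold, and 0.623% did so by being higher. No member was past 2-fold, as 0.101% of all genes were. The median log2 ratio of pre-miR-424 over control was −0.098 for the 44 genes and −0.0042 for all measured genes. This shift came mainly from the swap, where the members' median was −0.18, whereas it was −0.014 on the normal array.

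The central 95% of all measured genes had mean log2 ratios from −0.40 to 0.40. JUP, PLEC, KRT5 and DSG2 lay below this range and KRT80 and TJP1 above it. Of these genes only KRT5 had opposite signs on the arrays, with 0.092 under normal labelling and −1.09 under the swap, so its low mean came from the swap. The mean ratio was below the lower quartile of all genes (−0.10) for 21 members and above the upper quartile (0.10) for 9. The error of these values was uneven. The SD between the arrays was as large as the mean ratio or larger for 21 members, while the mean was over 2 SD in size for 17. The shares of all measured genes under these rules were not computed. Spots of one probe had a median range of 0.061 under normal labelling and 0.054 under the swap over the 42 members with 2 spots. The largest range was 0.28, for OCLN. For some members, among them OCLN, TJP1, IVL and PKP2, spots on 1 array differed by more than the arrays did. A very small SD between arrays therefore overstates the precision of a value.

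**Figure D1:**
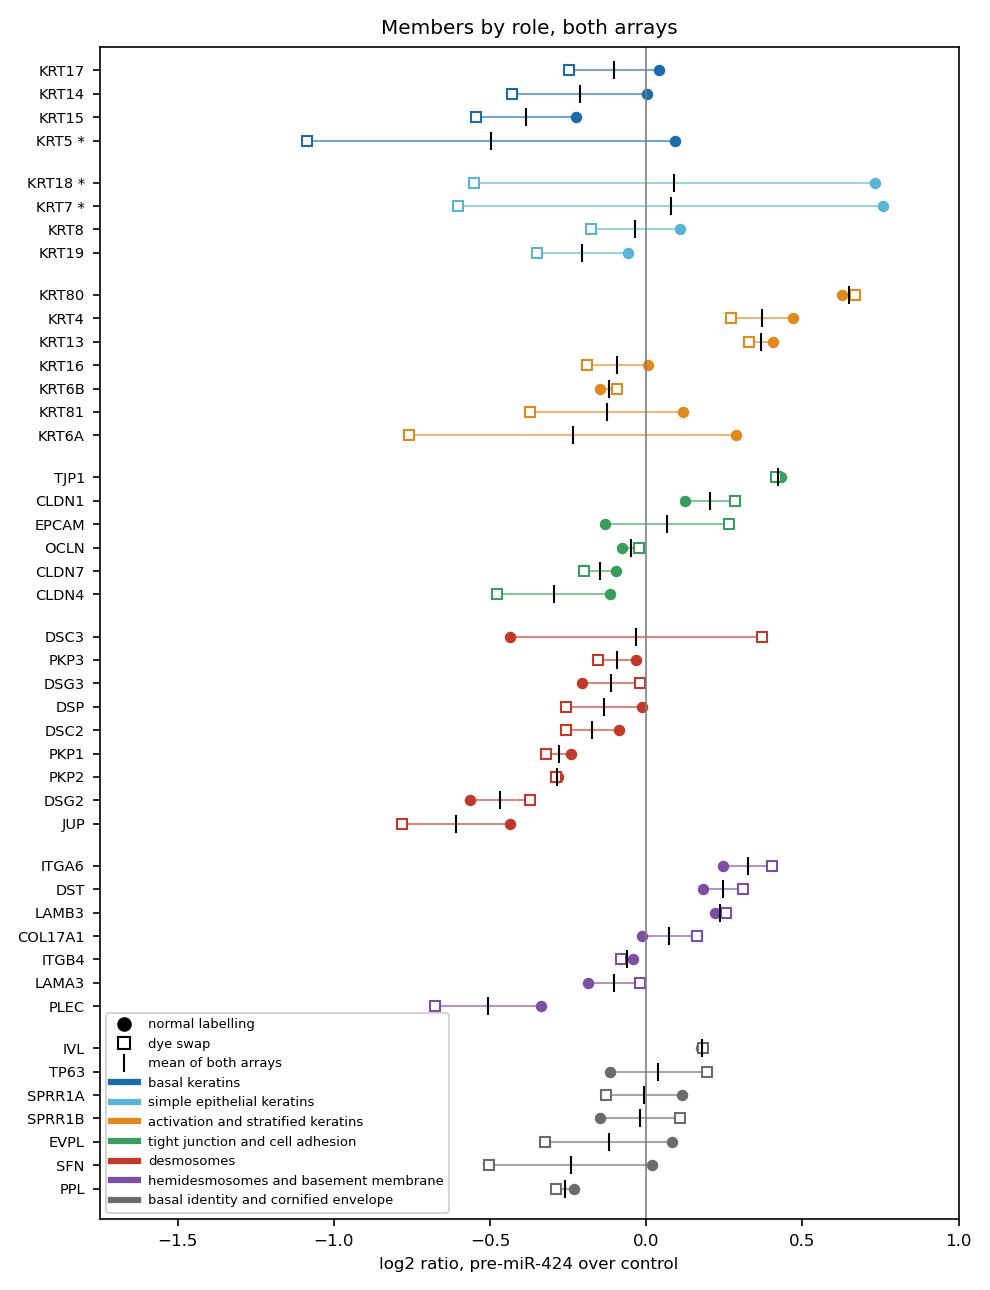
Log2 ratios of pre-miR-424 over control for the 44 genes, grouped by role and ordered by mean within a role; filled circles are the normal array, open squares the dye swap, black ticks their mean, and asterisks mark probes in the brightest 1%. Of the 9 desmosome genes, 8 lie left of 0 on both arrays, while the longest lines belong to KRT5, KRT7 and KRT18.

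Desmosome genes had the most even direction. JUP (NM_002230), which encodes plakoglobin, the plaque protein that links desmosomal cadherins to desmoplakin, had a log2 ratio of −0.44 under normal labelling and −0.78 under the swap (mean −0.61, SD 0.25), or 0.656 of the control level. After normalization its log2 level was 13.08 and 12.72 in the pre-miR-424 channels and 13.51 and 13.50 in the control channels, so that both control levels lay above both levels with pre-miR-424. DSG2 (NM_001943), the desmoglein found in most epithelia, gave −0.56 and −0.37 (mean −0.47, SD 0.14), again without overlap between the channels of the cell groups. The share of all measured genes without such overlap was not computed, here or for the genes below. The same direction on both arrays, which such a lack of overlap requires, was seen in 53.5% of all measured genes.

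The plakophilins, which cluster the cadherins at the plaque, were lower as well, by smaller amounts. PKP2 (NM_004572) gave −0.28 and −0.29, with an SD of 0.0049. PKP1 (NM_000299) gave −0.24 and −0.32 at its brightest probe and −0.33 and −0.45 at its other probe, so that both probes were lower on both arrays. PKP3 (NM_007183) was lower by less, with −0.033 and −0.15.

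Among the other desmosome genes, DSP (NM_004415), which encodes desmoplakin, the protein that holds the keratin filaments, gave −0.014 and −0.26, and −0.093 and −0.30 at its other probe. DSC2 (NM_024422) gave −0.087 and −0.26, and DSG3 (NM_001944), the desmoglein of the basal layers of stratified epithelia, gave −0.21 and −0.019. DSC3 (NM_024423), a desmocollin of basal layers, was the exception, with −0.44 under normal labelling and 0.37 under the swap (mean −0.033, SD 0.57). In all, 8 of 9 desmosome genes (88.9%) were lower on both arrays, where 26.7% of all measured genes were. Of these 8, DSP and PKP3 lay near 0 on the normal array and DSG3 on the swap. The median of the 9 genes was −0.17, and the medians on the single arrays were −0.24 and −0.26.

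**Figure D2:**
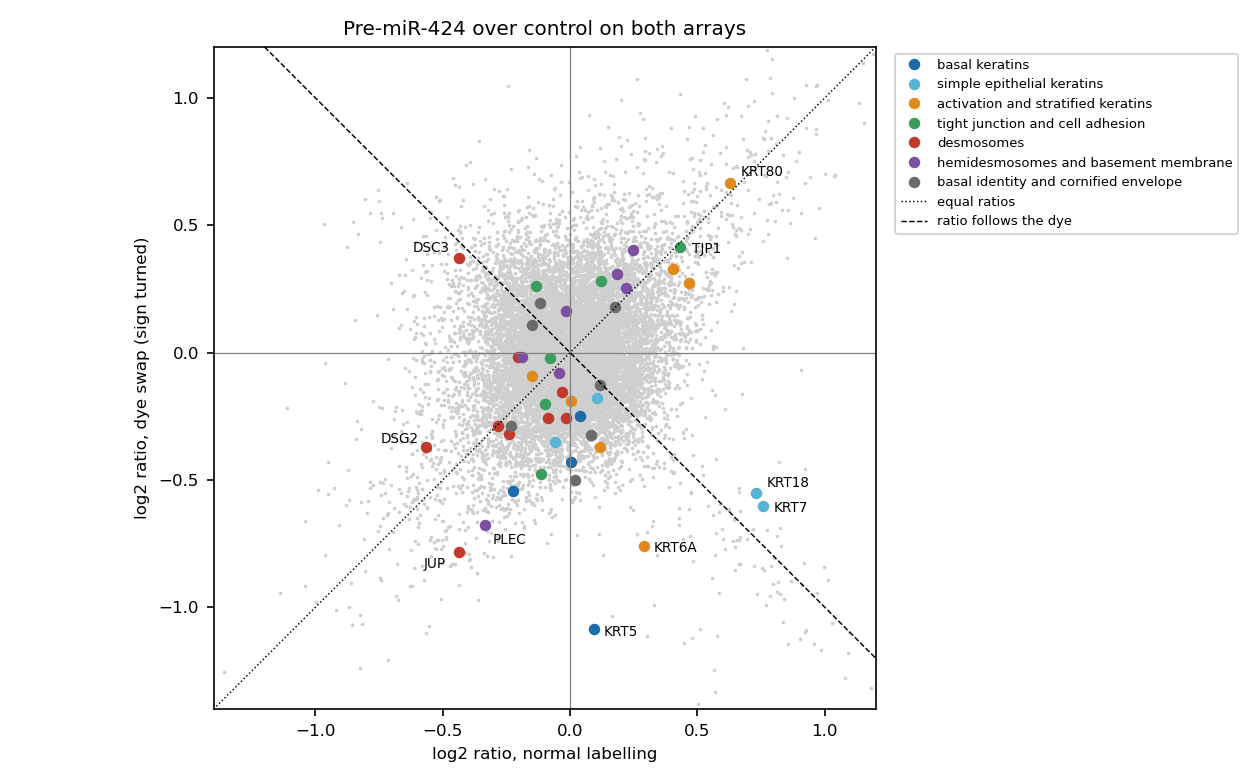
Log2 ratios on the normal array (x) against those on the dye swap after its sign was turned (y), for all measured genes (grey) and the 44 genes (colours by role); the few genes beyond the axes are not shown, genes near the dotted line repeat on the swap and genes near the dashed line follow the dye. KRT80 and TJP1 lie on the dotted line above 0, JUP, PLEC and DSG2 lie near it below 0, and KRT7 and KRT18 lie near the dashed line.

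Hemidesmosome and basement membrane genes were divided. ITGA6 (NM_000210), the integrin chain that pairs with ITGB4 to bind laminin, had log2 ratios of 0.25 and 0.40 (mean 0.32, SD 0.11), and 0.42 and 0.36 at its other probe. Its partner ITGB4 (NM_000213) gave −0.042 and −0.081, so the values of these 2 chains differed in sign. LAMB3 (NM_001017402), a chain of laminin-332, was higher with 0.22 and 0.25 (mean 0.24, SD 0.025), whereas LAMA3 (NM_198129), another chain of the same laminin, gave −0.19 and −0.019.

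The plakins of the hemidesmosome, which join the integrin to the keratin filaments, went in opposite directions. DST (NM_001723), which encodes dystonin, was higher with 0.18 and 0.31 (mean 0.25, SD 0.089), and its other 2 probes had means of 0.26 and 0.13. PLEC (NM_201380), which encodes plectin, was lower with −0.34 and −0.68 (mean −0.51, SD 0.24). A much dimmer second probe of PLEC gave −0.15 and −0.21, so its direction was shared by both probes but its size was not. COL17A1 (NM_000494), the transmembrane collagen of the hemidesmosome, gave −0.014 and 0.16. The 7 genes counted 3 higher and 3 lower on both arrays, where 26.8% and 26.7% of all measured genes were, with a median of 0.074.

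Tight junction and adhesion genes were divided too. TJP1 (NM_003257), which encodes the scaffold ZO-1, had log2 ratios of 0.43 and 0.42 (mean 0.42, SD 0.010), or 1.34-fold, and both levels with pre-miR-424 (12.38 and 12.34 on the log2 scale) lay above both control levels (11.95 and 11.92). CLDN1 (NM_021101), a claudin of stratified epithelia, was higher with 0.12 and 0.28. In contrast CLDN4 (NM_001305) gave −0.12 and −0.48 (mean −0.30, SD 0.26) and CLDN7 (NM_001307) −0.098 and −0.20, so that the 3 claudins of the set did not share a direction.

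The transmembrane proteins OCLN and EPCAM gave small mean ratios. OCLN (NM_002538) gave −0.078 and −0.022 at its brightest probe (mean −0.050, SD 0.039), but −0.28 and 0.34 at its other probe. EPCAM (NM_002354), an adhesion molecule of most epithelia, gave −0.13 and 0.26 (mean 0.065, SD 0.28). Of the 6 genes, 2 were higher and 3 lower on both arrays, against the same shares of all genes, and the median was 0.0076.

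**Figure D3:**
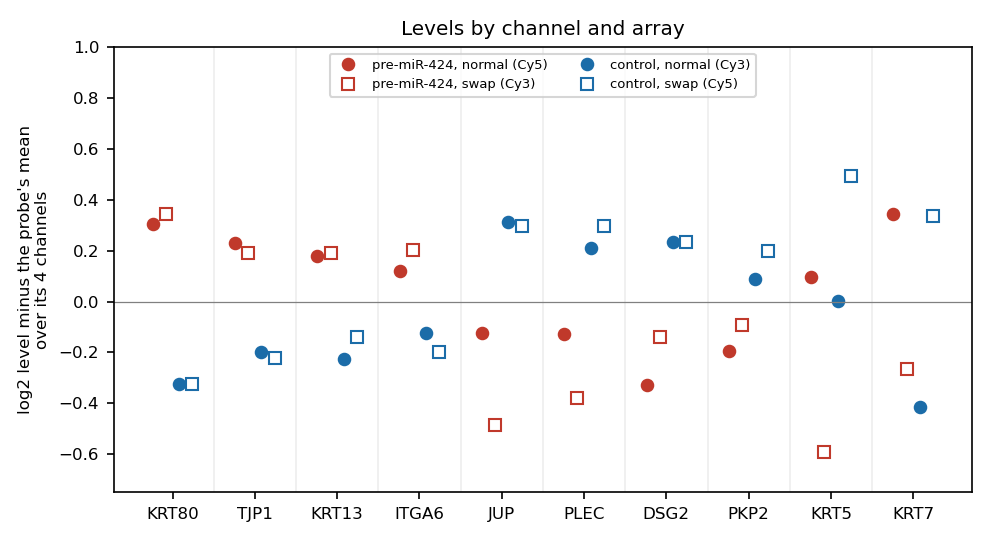
Log2 levels of 10 genes in each channel, as the difference from the probe's own mean over its 4 channels; red is pre-miR-424, blue is control, filled circles are the normal array and open squares the dye swap. For KRT80, TJP1, KRT13 and ITGA6 both red points lie above both blue points, for JUP, PLEC, DSG2 and PKP2 both lie below, and for KRT7 both Cy5 channels, one of each colour, lie above both Cy3 channels.

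Among the keratins, the largest difference was that of KRT80 (NM_182507), a type II keratin of differentiating epithelial cells found near desmosomes. Its log2 ratios were 0.63 and 0.67 (mean 0.65, SD 0.028), or 1.57-fold, measured by a probe with 1 spot on each array. The log2 levels were 11.18 and 11.21 with pre-miR-424 and 10.55 and 10.54 in control cells. The only setting in which KRT80 fell short of 1.5-fold on both arrays was median centring, where its mean was 0.59.

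KRT4 and KRT13, which form the pair of differentiating cells in non-cornified stratified epithelia, were both higher by a similar size. KRT4 (NM_002272) gave 0.47 and 0.27 (mean 0.37, SD 0.14), and KRT13 (NM_002274) gave 0.41 and 0.33 (mean 0.37, SD 0.054). KRT80, KRT4 and KRT13 were the only keratins of the 15 that were higher on both arrays, where 26.8% of all measured genes were, and KRT15, KRT19 and KRT6B were the 3 that were lower on both.

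The keratins of activated and wounded epithelium in the set did not follow them. KRT6B (NM_005555) gave −0.15 and −0.093, and its usual partner KRT16 (NM_005557) gave 0.0053 and −0.19. KRT6A (NM_005554) gave 0.29 and −0.76, so its mean of −0.24 came with an SD of 0.74. KRT81 (NM_002281), a hair keratin also found in epithelial cell lines, gave 0.12 and −0.37. Outside the set, KRT6C was higher with 0.11 and 0.43, and the hair keratin KRT83 with 0.016 and 0.13 at its brightest probe. KRT6A and KRT6B are near-identical copies, as are SPRR1A and SPRR1B to a lesser degree. Whether their probes, or that of KRT6C, share target RNA was not tested.

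Basal keratins had means below 0 in 4 of 4 genes, but 3 of them had opposite signs on the arrays. KRT15 (NM_002275), a type I keratin of basal cells, was the one lower on both, with −0.22 and −0.54 (mean −0.38, SD 0.23). KRT5 (NM_000424) gave 0.092 and −1.09 (mean −0.50, SD 0.83), and KRT14 (NM_000526), its partner, 0.0029 and −0.43 (mean −0.21, SD 0.31). KRT17 (NM_000422) gave 0.040 and −0.25. The median of the 4 basal keratins was 0.021 under normal labelling and −0.49 under the swap, so that a lower level of this group was seen only on the swap.

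The simple epithelial keratins, which line single-layered and luminal epithelia, gave no common direction either. KRT7 (NM_005556) gave 0.76 and −0.60 (mean 0.078, SD 0.96), and KRT18 (NM_000224) gave 0.73 and −0.55 (mean 0.090, SD 0.91). KRT8 (NM_002273), the partner of KRT18, gave 0.11 and −0.18, and its other probe −0.16 and 0.45. KRT19 (NM_002276) was lower on both arrays, with −0.060 and −0.35.

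The large disagreements of the keratins went with the dye. The dye part of a ratio, that is the mean log2 ratio of Cy5 over Cy3 over both arrays without turning the swap, was 0.68 for KRT7, 0.64 for KRT18, 0.59 for KRT5 and 0.52 for KRT6A. KRT7, for example, had raw median signals of 226570 in Cy5 and 62733 in Cy3 on the normal array and of 222229 in Cy5 and 54855 in Cy3 on the swap, so that Cy5 was brighter whichever RNA it carried. KRT7 was also the one member whose Cy5 over Cy3 ratio passed 1.5-fold on both arrays, which 0.514% of all measured genes did with Cy5 brighter.

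KRT5, KRT7 and KRT18 were in the brightest 1% of measured probes, 257 probes whose mean log2 intensity was at least 16.44. The median dye part was 0.65 in those probes and 0.0069 in all other measured probes, and it was at least 0.25 for 91.4% of the former and 2.44% of the latter. The boundary did not separate members cleanly. Just inside it lay KRT18 with a log2 intensity of 16.52, and just outside it KRT6A with 16.39 and a dye part of 0.52, KRT14 with 16.36 and 0.22, and SFN with 16.17 and 0.26. For these 6 genes the mean of the arrays cancels the dye only where it acted equally on both.

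A second probe outside the brightest 1% was measured for KRT18. It gave 0.21 and −0.065, with a dye part of 0.14 and a mean of 0.073, close to the mean of 0.090 at the brightest probe. Over all 15 keratins the median dye part was 0.14, against 0.0027 for all measured genes. The keratin median was −0.10 (−0.11 without the probes in the brightest 1%), with 0.11 under normal labelling and −0.35 under the swap, so the direction of the keratins as a group depended on the array.

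**Figure D4:**
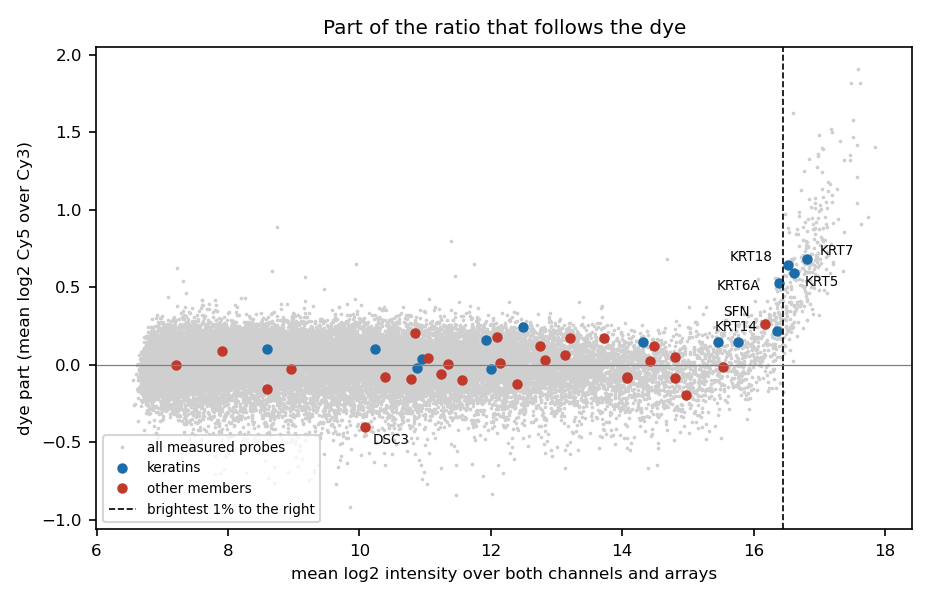
Dye part (mean log2 ratio of Cy5 over Cy3 on both arrays) against mean log2 intensity for all measured probes (grey), keratins (blue) and the other members (red); the dashed line marks the brightest 1%, from 16.44. KRT5, KRT7 and KRT18 lie to the right of the line, with KRT6A, KRT14 and SFN just left of it, and the dye part of all probes climbs there.

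Genes of basal identity and of the cornified envelope differed little. TP63 (NM_003722), whose product p63 keeps the basal state, had log2 ratios of −0.12 and 0.19 (mean 0.038, SD 0.22), a difference within the array error. SFN (NM_006142), which encodes 14-3-3 sigma, an epithelial cell cycle inhibitor, gave 0.019 and −0.50. PPL (NM_002705), which encodes periplakin, a plakin of the cornified envelope and of desmosomes, was lower with −0.23 and −0.29 (mean −0.26, SD 0.039), while its partner EVPL (NM_001988), envoplakin, gave 0.083 and −0.32.

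The precursors of the envelope itself gave small values. IVL (NM_005547), involucrin, was higher with 0.18 on both arrays (SD 0.0035), at a probe so dim that 13.8% of the measured probes were dimmer. SPRR1A (NM_005987) gave 0.12 and −0.13 at its brightest probe and 0.55 and −0.015 at its other, and SPRR1B (NM_003125) gave −0.15 and 0.11. Of the 7 genes, IVL was the one higher and PPL the one lower on both arrays, where 26.8% and 26.7% of all measured genes were. The other 5 had opposite directions on the arrays (71.4%, against 46.5% of all measured genes).

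In 10 of the 44 genes more than 1 probe was measured, which gives a check that does not rest on 1 oligonucleotide. The means of the probes had one sign in 7 of these genes and different signs in 3, KRT8, OCLN and SPRR1A. The same share over all genes with more than 1 measured probe is not given here. Of the 7, KRT18 and DSC3 had opposite signs on the arrays at each probe. The other probe of DSC3 gave −0.24 and 0.018. For PKP1, DSP and PLEC every probe was lower on both arrays, and for ITGA6 and DST every probe was higher on both.

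**Figure D5:**
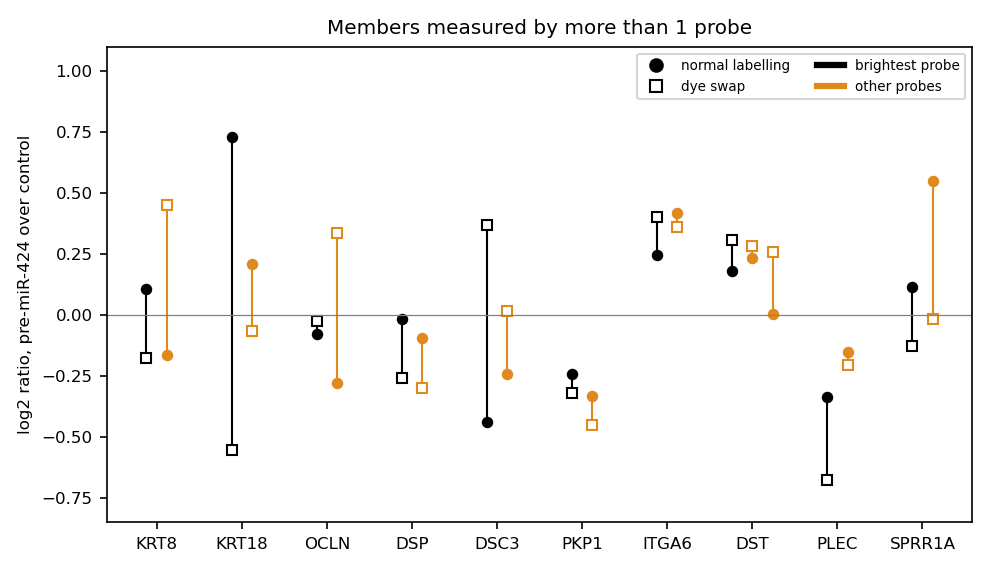
Log2 ratios of pre-miR-424 over control for each probe of the 10 genes with more than 1 measured probe; black is the brightest probe, orange the others, filled circles the normal array and open squares the dye swap. Probes of PKP1, DSP, PLEC, ITGA6 and DST keep to one side of 0, and the probes of KRT8, KRT18, OCLN, DSC3 and SPRR1A do not.

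Further genes of the same structures were taken from lists written from general knowledge. None of them passed 1.5-fold on both arrays, which is near the share of all measured genes that did, 1.01%. Their counts stand beside the shares of all measured genes, 26.8% higher and 26.7% lower on both arrays. Of 3 further desmosome genes measured, PERP (NM_022121), a membrane protein of desmosomes, was lower with −0.87 and −0.46 (mean −0.67, SD 0.29), larger in size than the mean of any member. The other 2, DSG1 (0.20 and −0.10) and PKP4 (−0.17 and 0.062), had opposite signs on the arrays. Of 15 further junction genes 2 were higher and 6 lower on both arrays. CTNNB1 (NM_001098210), which encodes β-catenin, the close relative of plakoglobin in adherens junctions, was higher with 0.57 on both arrays, opposite to JUP, and its other probe, left out for an outlier spot, gave 0.52 and 0.45. CLDN12 (NM_012129) was lower with −0.62 and −0.48, and −0.55 on both arrays at its other probe, whereas E-cadherin, CDH1, gave −0.11 and 0.0066.

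Among 9 further basement membrane adhesion genes 1 was higher and 3 lower on both arrays. CD151, a tetraspanin bound to laminin-binding integrins, was lowest with −0.25 and −0.41. ITGA2, a collagen-binding integrin chain, had the highest mean (0.40), from −0.24 under normal labelling and 1.05 under the swap. Of 8 further keratins measured, 5 were higher and 1 was lower on both arrays (all measured genes, 26.8% and 26.7%), from KRT75 (0.062 and 0.53) to KRT9 (−0.015 and −0.21), with a median of 0.11. Of 13 further cornified envelope genes, 4 were higher and 5 lower, with S100A7 at the top (0.38 and 0.45). S100A2 had the lowest mean, −0.28, but its ratios of 1.13 and −1.69 followed the dye.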

How the data were processed

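Amplified RNA of RWPE-1 cells, after transfection of the precursors at 30 nM, was hybridised to 2 Agilent arrays of 2 colours, the second a dye swap. Per the file headers, the scanner files deposited by the authors were made with Feature Extraction 10.7.3.1 on an array design for hg19, and hold raw median spot and background intensities on a linear scale, with a log10 ratio dye-normalized by the software. A further table deposited by the authors holds log2 ratios, whose steps are not given in the sources used here beyond the name limma in the submitters' processing notes. Against the ratios computed here these ran as Cy5 over Cy3 on each array (Pearson's r 0.991 and 0.988 over 42405 probes), with column medians of 0.024 and 0.036. All its value columns belonged to these arrays.

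Background was corrected by normexp with an offset of 50 on all spots, control spots were dropped, and each array was normalized by loess (limma 3.58.1, R 4.3.3). The offset understates the ratios of dim probes. Spots of a probe were averaged. A probe was measured when its signal was well above background in all 4 channels, at most of its spots, without outlier spots (25664 probes). Median signals on the arrays were 165 to 189 in Cy3 and 290 to 314 in Cy5 over backgrounds of 28 to 70, and no spot was saturated. Across measured probes the arrays correlated with a Pearson r of 0.157. Levels per channel were scaled by Aquantile.

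Probes were named by RefSeq accession through a gene table (GRCh38.p14), used for names only, and the brightest measured probe stood for a gene. Every gene of the set is named; of further lists, genes past 1.5-fold and the highest and lowest means, and any other was chosen after its values were seen. Values of some genes in the further lists are not reported here. Members and lists were chosen with earlier results of these data known. The grouping of probes by agreement was made after the values were seen. The steps were tested on simulated data, with changes past 2-fold and a dye effect that rose evenly with intensity. That test does not cover ratios as small as those of the members. The 12 alternatives comprised other background corrections, normalizations, filters, probe rules, sources of ratios and single arrays. Python 3.11.15, pandas 2.3.3 and numpy 2.4.6 were used.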

Additional observations from a re-analysis of the deposited data

How the results depend on the processing

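All 27 members with one direction on both arrays kept the sign of their mean in the main analysis and the 10 alternatives that used both arrays, and 16 of them, among them JUP, DSG2, DSG3, DSC2, PKP1, PKP2, PLEC, KRT80, KRT4, KRT13 and TJP1, also kept that direction on each array. The members' median was −0.15 with median centring, where the median of all genes was −0.044 (0.13 on the normal array, −0.23 on the swap), and ran from −0.18 to −0.014 over single arrays. Median centring left 9 members lower on both arrays and 0 past 1.5-fold, with 28 whose Cy5 over Cy3 ratio had one sign on both arrays and 7 that followed the dye at 1.5-fold. That last count, 1 in the main analysis, was 0 with an offset of 16, 0 with the scanner software's ratios and 0 without the brightest 1%, which drops KRT7. The cause of the first and second was not tested. With a single array, 14 to 21 members were higher, 23 to 30 lower, 3 to 6 past 1.5-fold and 0 to 1 past 2-fold (KRT5, on the swap), since no repeat was asked for. The mean of PLEC was −0.34 when its probes were averaged, and that of IVL 0.33 with the scanner software's ratios, against 0.18. Signal over background limits dim probes such as IVL, DSC2, TP63 and KRT4. No paired analysis was possible because each ratio already sets both RNAs against each other on 1 array and the arrays form a single group.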

Other observations

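Transcription factors and splicing regulators of epithelial identity were listed beside the structural genes. Of the 14 measured, 9 were lower on both arrays (26.7% of all measured genes were) and 2 were higher, with a median log2 ratio of −0.16. ELF3, an ETS factor of differentiated epithelia, had the lowest mean, with −0.36 under normal labelling and −0.53 under the swap (mean −0.45, SD 0.12). GRHL2, which maintains epithelial junctions, gave −0.43 and −0.21, and GRHL3 gave −0.31 and −0.23. The other measured probe of GRHL2 gave −0.035 and −0.041, so its size rested on 1 probe, and the other probe of GRHL3, which was not measured in full, gave 0.17 and 0.30. ESRP1, an epithelial splicing regulator, gave −0.16 and −0.24. EHF had the highest mean, with 0.25 and 0.032. None passed 1.5-fold on both arrays, as 1.01% of all measured genes did.

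Of 7 mesenchymal genes, all measured, 5 were higher and 1 lower on both arrays (26.8% and 26.7% of all measured genes were), with a median of 0.15. SNAI2, which encodes Slug and is also expressed in basal epithelial cells, was the highest with 0.26 and 0.36, and VIM, the mesenchymal intermediate filament protein, was the lowest with −0.27 and −0.31. ZEB2 gave 0.19 and 0.24 at its brightest probe and −0.068 and −0.017 at its other probe, and ZEB1 gave 0.12 and 0.10. TWIST1 gave 0.30 and 0.11 at its brightest probe, but −0.39 and 0.66 at its other probe. The count of higher genes thus depended on the choice of probe for ZEB2 and TWIST1.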
